A study of Saccharomyces cerevisiae with 8 samples.

Results

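The proteasome is the barrel-shaped protease that degrades proteins tagged with ubiquitin. It is built from a core particle, whose alpha ring gates the chamber and whose beta ring holds the proteolytic sites, and from a regulatory particle, whose base unfolds substrates with ATPases and whose lid removes the ubiquitin chain. In budding yeast its genes share a transcription factor, Rpn4, which binds their promoters and is itself a short-lived substrate of the proteasome, so that Rpn4 builds up when degradation is slow. RPN4 is also known as a target of stress-responsive factors such as Yap1. Genes of this set were taken by name from the array's non-control spots: 14 core particle genes, 18 regulatory particle genes and RPN4, which makes 33 of the 6225 genes on the array. Each of the 33 was represented by 1 probe with 2 spots, and all 33 passed the filter on dim probes and were tested, among 6045 genes in all.

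The samples were Saccharomyces cerevisiae of the laboratory strain CENPK.2-1C, grown in the rich medium YPD and collected in exponential phase at an OD600 of 1.0. Control cells and cells labelled as TFIIB mutants (M1 in the series' design) were each grown without and with 4 mM hydrogen peroxide (H2O2), an oxidant that damages proteins. This gave 4 groups of 2 one-colour Agilent arrays, described in the series' design as biological replicates. The labels used here name neither the mutant allele nor how it was carried, and give no time of exposure to H2O2, so the arrays describe cells growing in its presence. Of the mating-type genes, the a-factor gene MFA1 gave 18287 to 27027 units across the 4 control arrays, whereas MF(ALPHA)1, the alpha-factor gene, gave 36.0 to 66.0 units.

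Values are the scanner's background-subtracted processed signal, in arbitrary units. Changes are on the log2 scale after subtraction of each array's 75th percentile, and their ± is the standard error from a limma fit of all 4 groups (n = 2 each). A gene was called at a Benjamini-Hochberg adjusted p under 0.05 over all 6045 genes. The number of arrays limits the precision of every value.

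The arrays differed in signal and in the spread between replicates before any comparison. The gene for TFIIB, SUA7, gave 13788 to 30808 units in control cells, and in the mutant 6.08 to 9.71 units, well above background on none of 4 arrays. The share of probes well above background was 94.7% to 97.2% for control arrays and 21.8% to 41.2% for arrays labelled mutant. Spike-in probes named E1A, which report RNA added in preparation, gave 2621 to 4079 and 3210 to 4693 units. The 2 control arrays without H2O2 differed from each other by little more than their duplicate spots did (mean variance ratio 1.45, median 1.499, over 5894 well-measured probes). For the 2 control arrays with H2O2 the same ratios were 56.0 and 23.3. Over the same probes the mean ratio of the mutant pairs was 1.25 without H2O2 and 1.02 with it, at readings mostly near background. The 2 control arrays without H2O2 were kept as 2 samples, and results are also given with them counted as 1. All arrays shared a slide, with each medium in its own row and each strain in its own columns, so place on the slide and group cannot be told apart.

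Control cells grown with and without H2O2 were compared first, to ask whether proteasome genes move in oxidant. None of the 33 genes passed the test in either direction, whereas H2O2 called 13.1% of all tested genes higher and 14% lower. At an unadjusted p under 0.05 the count was also 0, where 39.9% of all tested genes were under it. The members' log2 changes ran from -0.43 for RPN4 to 0.25 for RPN10, with a median of -0.12 and an interquartile range of 0.084. Over all tested genes, dim ones included, the median was 0.032 and the interquartile range 0.826. Genes as bright as the members were not set apart. The sign was negative for 27 members and positive for 6 (RPN10, PUP1, PRE5, SCL1, RPT1 and PRE1). The members' changes thus lay close to each other, with a median slightly below that of all tested genes and small beside their interquartile range. The 2 arrays with H2O2 gave members' medians of -0.099 and -0.148 against the control mean. On 24 of the 33 genes both H2O2 arrays lay below both control arrays, where 41.3% of all genes did so, and on 5 they lay above both, where 45.3% did.

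**Figure D1:**
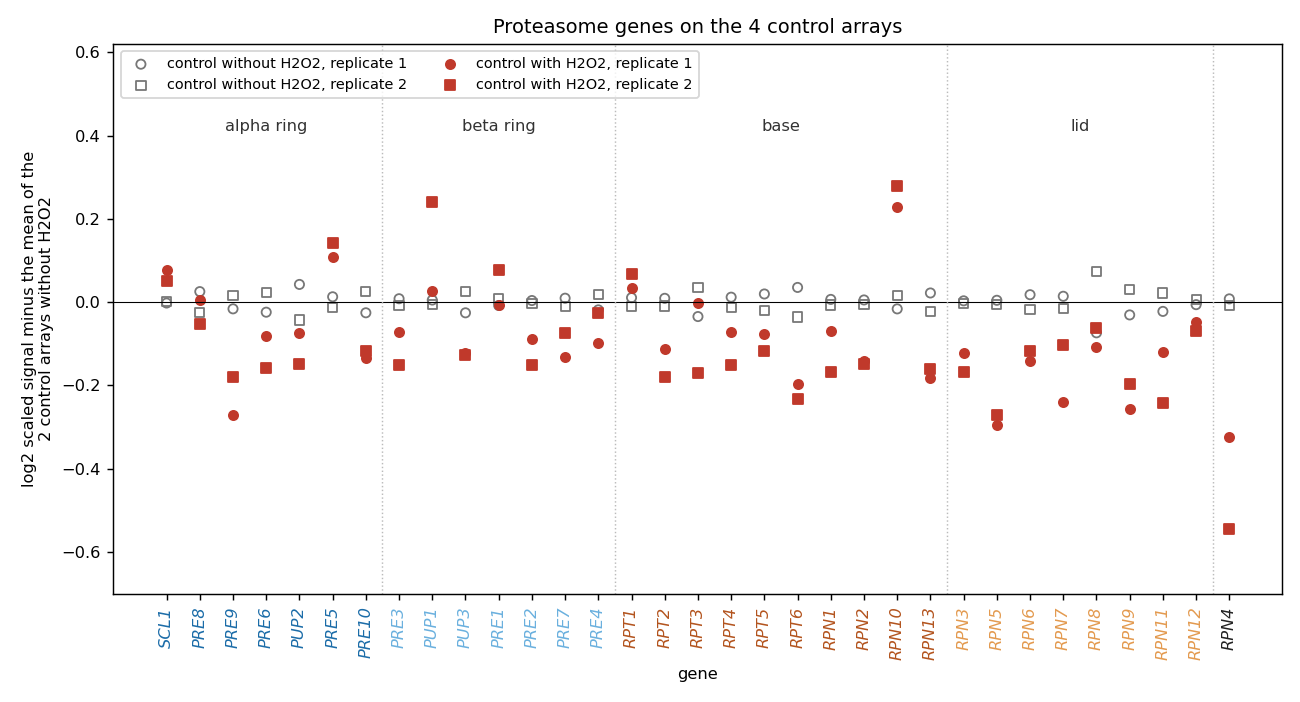
Log2 scaled signal of each proteasome gene on the 4 control arrays (y axis), as the difference from the mean of the 2 control arrays without H2O2; genes are ordered by role along the x axis and each point is 1 array. Filled points (with H2O2) lie mostly just below the open points (without), RPN4 lies lowest at -0.32 and -0.54, and RPN10 lies above at 0.23 and 0.28.

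RPN4 (YDL020C), the regulator of the set, lies on chromosome IV at 415113 to 416708 on the minus strand. Its probe read 15978 and 15779 units in control cells without H2O2 and 7557 and 9116 units with H2O2. Both arrays with H2O2 were lower, and the groups did not overlap. The 75th percentile of the same arrays was 15424 and 15403 units without H2O2 and 9185 and 12898 units with it, so it was lower on both H2O2 arrays as well. After scaling, RPN4 changed by -0.43 ± 0.31 (95% interval -1.16 to 0.29, limma adjusted p = 0.340). The interval covers no change and also a fall of more than 2-fold. Relative to the median of the 32 subunit genes on the same array, the scaled value of RPN4 moved by -0.23 and -0.41 in log2 on the 2 arrays with H2O2, and by no more than 0.0031 on either array without it. The 2 arrays without H2O2 differed by little more than their duplicate spots, so 0.0031 is no measure of the spread between cultures. No test is given for the shift of RPN4 against the subunits. The exact permutation test of 2 arrays against 2 cannot go below p = 0.333.

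These calls depended on the arrays that set the error. The error of the 4-group fit includes the arrays labelled mutant, and when the 4 control arrays were fitted alone the median standard error of the members went from 0.178 to 0.063. In that fit RPN4 fell by 0.43 (limma adjusted p = 0.030), RPN5 fell by 0.28 (0.023) and RPN9 fell by 0.23 (0.049), while RPN10 rose by 0.25 (0.033). That is 3 members lower and 1 higher, against 25.9% of all genes lower and 31.5% higher. With 2 residual degrees of freedom, this fit drew part of its error from the no-H2O2 pair. The mean variance ratio of that pair against duplicate spots was 1.45, where the H2O2 pair gave 56.0. If the no-H2O2 pair understates the spread between cultures, the standard errors and adjusted p-values of this fit are too small. With normexp background correction, 11 members were lower, RPN4 among them at -0.50 (adjusted p = 0.0022), and 1 was higher, RPN10, against 32.5% and 37.6% of all genes. In each fit the changes called in the 32 subunits were under 0.30 in log2.

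**Figure D2:**
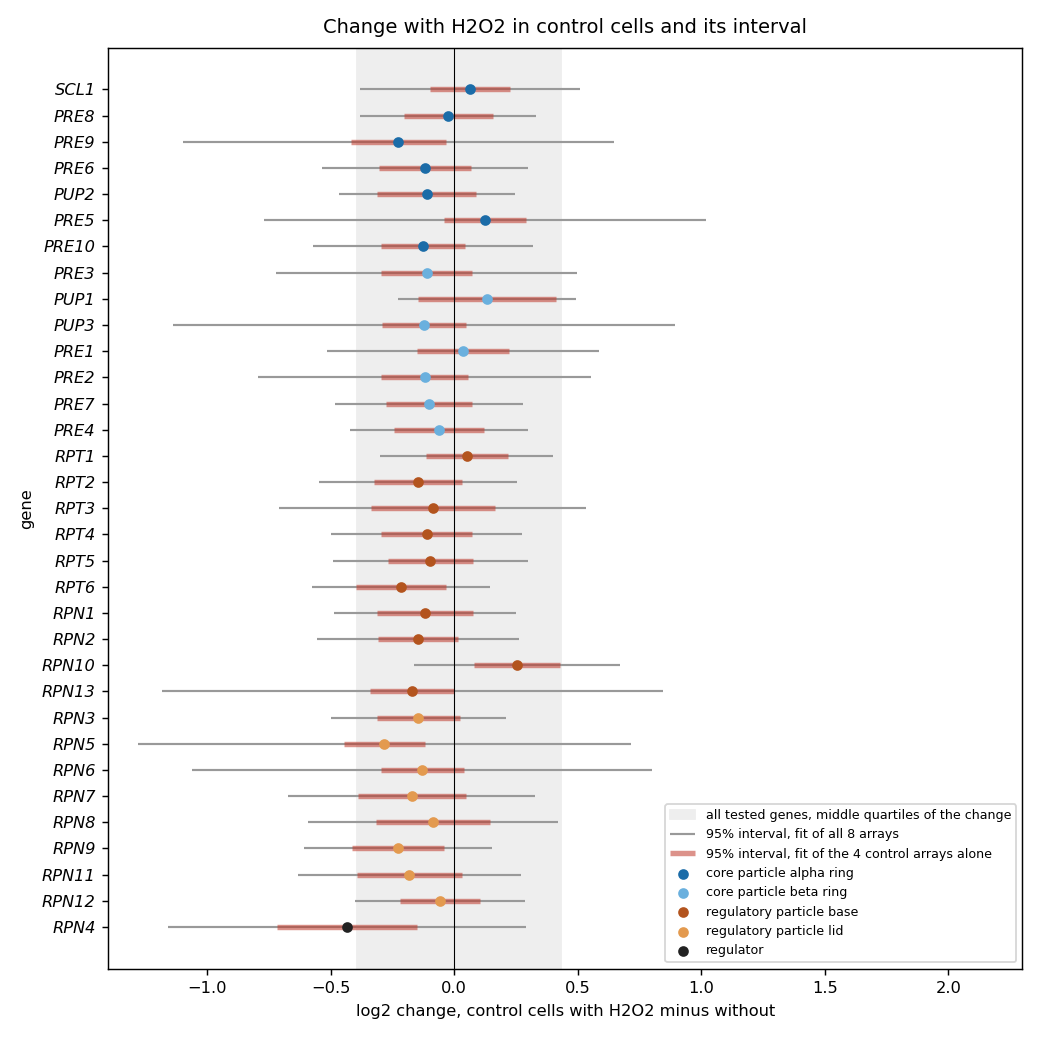
Log2 change with H2O2 in control cells (x axis) for the 33 genes (y axis), coloured by role; thin grey lines are 95% intervals from the fit of all 8 arrays, thick red lines those from the 4 control arrays alone, and the grey band spans the middle quartiles of the change over all tested genes. All points except RPN4 (-0.43) lie inside the band, and the red intervals of RPN4, RPN5, RPN9 and RPN10 are among those that leave out 0.

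In the alpha ring, which gates the core particle, the median of 7 genes was -0.11, with 5 negative and 2 positive. PUP2 read 55838 and 52558 units without H2O2 and 30657 and 40924 with it, and changed by -0.11 ± 0.15 after scaling. PRE6 read 92358 and 95346 units and then 52852 and 70436 (-0.12 ± 0.18), and PRE10 read 61981 and 64114 units and then 34250 and 48623 (-0.13 ± 0.19). The unscaled signal of each was lower on both H2O2 arrays, as was the 75th percentile, and after scaling the differences were small. PRE5 and SCL1, from the same ring, went the other way: PRE5 read 62395 and 61196 units and then 39666 and 57042 (0.12 ± 0.38), and SCL1 read 80079 and 80188 units and then 50346 and 69507 (0.06 ± 0.19). PRE9, the gene for the alpha subunit that yeast can live without, changed by -0.23 ± 0.37, and PRE8 by -0.02 ± 0.15. None of these 7 changes passed the test.

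In the beta ring the median of 7 genes was -0.10, again with 5 negative and 2 positive. The 3 subunits with proteolytic sites are encoded by PRE3, PUP1 and PRE2, for the caspase-like, trypsin-like and chymotrypsin-like activities. PUP1 read 40577 and 40229 units without H2O2 and 24517 and 39920 with it, a change of 0.13 ± 0.15 that rested mainly on the second H2O2 array (0.03 and 0.24 above the control mean). PRE3 read 34124 and 33684 units and then 19233 and 25538 (-0.11 ± 0.26), and PRE2 changed by -0.12 ± 0.29. The 3 catalytic subunit genes thus did not share a sign. Of the non-catalytic subunits, PRE7 read 32342 and 31870 units and then 17471 and 25531 (-0.10 ± 0.16), while PUP3, PRE4 and PRE1 changed by -0.12, -0.06 and 0.04. PRE1 (0.04 ± 0.23) overlapped between the groups.

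The base of the regulatory particle holds 6 ATPases (RPT1 to RPT6), the scaffolds RPN1 and RPN2 and the ubiquitin receptors RPN10 and RPN13. Its median over 10 genes was -0.12, with 8 negative and 2 positive. RPN10, on chromosome VIII at 499079 to 499885 on the plus strand, encodes a receptor that is also found outside the proteasome, and it had the most positive change of the 33. Its probe read 97708 and 99768 units without H2O2 and 68949 and 100244 with it, and after scaling it lay 0.23 and 0.28 above the control mean (0.25 ± 0.18, 95% interval -0.16 to 0.67, adjusted p = 0.334). Both H2O2 arrays lay above both controls on the scaled values, as for 45.3% of all genes. On the spike-in scale, which keeps array-wide shifts, RPN10 changed by -0.29. The other receptor gene, RPN13, changed by -0.17 ± 0.43.

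RPT6 read 25976 and 24696 units without H2O2 and 13169 and 18040 with it (-0.21 ± 0.15, 95% interval -0.57 to 0.15). RPT2 read 35266 and 34764 units and then 19288 and 25866 (-0.15 ± 0.17). The changes of the 6 ATPase genes, whose products form a single ring, ranged from -0.21 for RPT6 to 0.05 for RPT1. The scaffold genes RPN1 and RPN2 changed by -0.12 and -0.15.

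In the lid all 8 genes of this set had a negative change, with a median of -0.16, and none passed the test. SEM1 was not among these 8 and was counted with the assembly factors and activators. RPN9 read 33369 and 34765 units without H2O2 and 16987 and 24855 with it (-0.23 ± 0.16, 95% interval -0.61 to 0.15). RPN11, which encodes the deubiquitinating enzyme of the lid, read 34097 and 35109 units and then 18978 and 24472 (-0.18 ± 0.19), and RPN3 read 40202 and 39962 units and then 21946 and 29861 (-0.14 ± 0.15). For these 3 genes both H2O2 arrays lay below both controls after scaling, as for 41.3% of all genes. The same held for RPN5, RPN6, RPN7 and RPN12, while RPN8 overlapped. RPN5, described because of its call in the fit of the control arrays alone, read 28011 and 27795 units and then 13558 and 19355 (-0.28 ± 0.42), the lowest change among the subunits. RPN6, RPN7, RPN8 and RPN12 changed by -0.13, -0.17, -0.09 and -0.06.

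The core and regulatory particles had medians of -0.11 and -0.14, and the mean of the core genes minus that of the regulatory genes shifted by 0.045 and 0.075 on the 2 H2O2 arrays. Either control array without H2O2 stood 0.00037 from their mean, but these 2 arrays differed by little more than their duplicate spots. That value is thus no measure of the spread between cultures, and no test is given for the shifts. The 95% interval of the change lay within 2-fold in both directions for 26 of the 33 genes (78.8%), against 50.8% of all tested genes, and within 1.5-fold for 17 (51.5%), against 12.4%. For the other 7 genes a change of 2-fold cannot be set aside in this fit, whose error includes the arrays labelled mutant. In the fit of the 4 control arrays alone their intervals lay within 2-fold, the widest being RPN4's at -0.72 to -0.15. The error of that fit rests partly on the 2 arrays without H2O2, which differed by little more than duplicate spots. All members read above the 75th percentile of those 2 arrays. The shares within 2-fold and 1.5-fold were not set against genes of like brightness, and how far brightness sets them was not tested. The arrays' scaling moved the level of the whole set. On the E1A spike-in scale, where the median of all genes fell by 0.52, all 33 members were negative with a median of -0.67, RPN4 at -0.98, and 0 were called, against 0.48% of all genes higher and 15.9% lower. Relative to the median of all genes the members stood at -0.15 with the 75th percentile, with the array median and on the spike-in scale. Each of these scalings subtracts 1 value per array, so this distance had to be the same on all of them. After quantile normalization, which does not work this way, the members stood at -0.19.

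**Figure D3:**
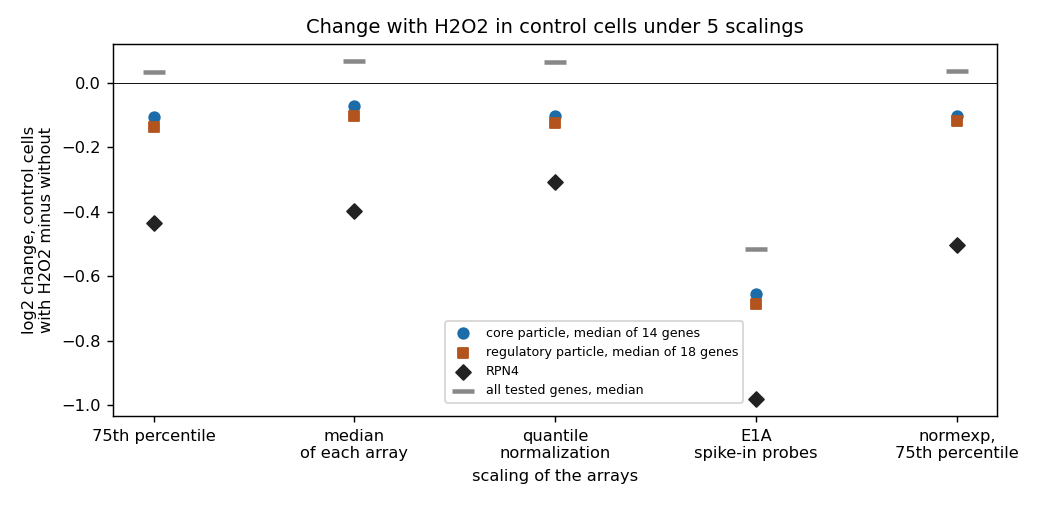
Median log2 change with H2O2 in control cells (y axis) for the core particle, the regulatory particle and all tested genes, and the change of RPN4, under 5 scalings (x axis). The core and regulatory medians stay close to each other and below the median of all genes under each scaling, and RPN4 lies below both, from -0.31 to -0.98.

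The genes around the proteasome were followed on lists of assembly factors, ubiquitin and its ligases, delivery factors and regulators of RPN4. Among 14 assembly factors and activators, 2 fell and 0 rose, where 14% of all tested genes fell and 13.1% rose. The median of this list was -0.13 and its interquartile range 0.409. TMA17, which encodes a stress-linked chaperone for assembly of the base, read 92348 and 85654 units without H2O2 and 14803 and 12588 with it. The groups were far apart, and TMA17 fell 4.60-fold (log2 -2.20 ± 0.25, adjusted p = 0.0039). SPG5, a proteasome regulator of stationary phase, fell from 21642 and 22012 units to 6755 and 10693 (-0.86 ± 0.21, adjusted p = 0.025). UMP1, the core maturation factor, changed by -0.28 ± 0.15 (adjusted p = 0.200), and POC4, an alpha ring assembly factor, by 0.95 ± 0.33 (adjusted p = 0.072).

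Among 19 genes of ubiquitin and its conjugation 2 rose and 2 fell, against 13.1% and 14% of all tested genes, with a median of 0.09. UBI4, the polyubiquitin gene known for its induction in stress, read 73050.0 and 63763 units without H2O2 and 17134 and 10856 with it, a fall of 3.53-fold (log2 -1.82 ± 0.38, adjusted p = 0.016). RPL40A, in which ubiquitin is fused to a ribosomal protein, rose by 0.86 ± 0.23 (adjusted p = 0.033). UBI4 and RPL40A, both sources of ubiquitin, thus moved in opposite directions. RPS31 and RPL40B, on the same list, were not called. RPL40B encodes the same protein as RPL40A, and whether the probes tell the genes apart was not tested. SAN1, a nuclear quality-control ligase, rose by 0.94 ± 0.16 (adjusted p = 0.0075), and HRD1, the ligase of the endoplasmic reticulum, fell by 0.77 (adjusted p = 0.025).

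Among 12 genes for chain recycling and delivery, 1 fell and 0 rose, against 14% and 13.1% of all tested genes, with a median of -0.17. The gene that fell was CUZ1, whose product links Cdc48 to the proteasome (-0.76 ± 0.19, adjusted p = 0.026). DDI1, a shuttle for ubiquitinated proteins, changed by -0.79 ± 0.26 (adjusted p = 0.059), DOA4, a deubiquitinating enzyme, by -0.58, and NPL4, a Cdc48 cofactor, by -0.48. None of 7 regulators acting on RPN4 or on Rpn4 turnover passed the test, with a median of 0.08. At an unadjusted p under 0.05 there was 1, where 39.9% of all tested genes were under it. YAP1 and PDR1, which encode activators of RPN4, changed by -0.22 ± 0.19 and 0.21 ± 0.28, and MUB1 and RAD6, which act in the degradation of Rpn4, by -0.57 ± 0.21 (adjusted p = 0.083) and 0.24 ± 0.30. With the 2 control arrays without H2O2 averaged into 1 sample, TMA17 was the 1 of these 7 called genes still called, the adjusted p of the other 6 lay between 0.084 and 0.173, and the members' counts stayed at 0. The call of SPG5, UBI4, RPL40A, SAN1, HRD1 and CUZ1 was also lost when either control array without H2O2 was left out.

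**Figure D4:**
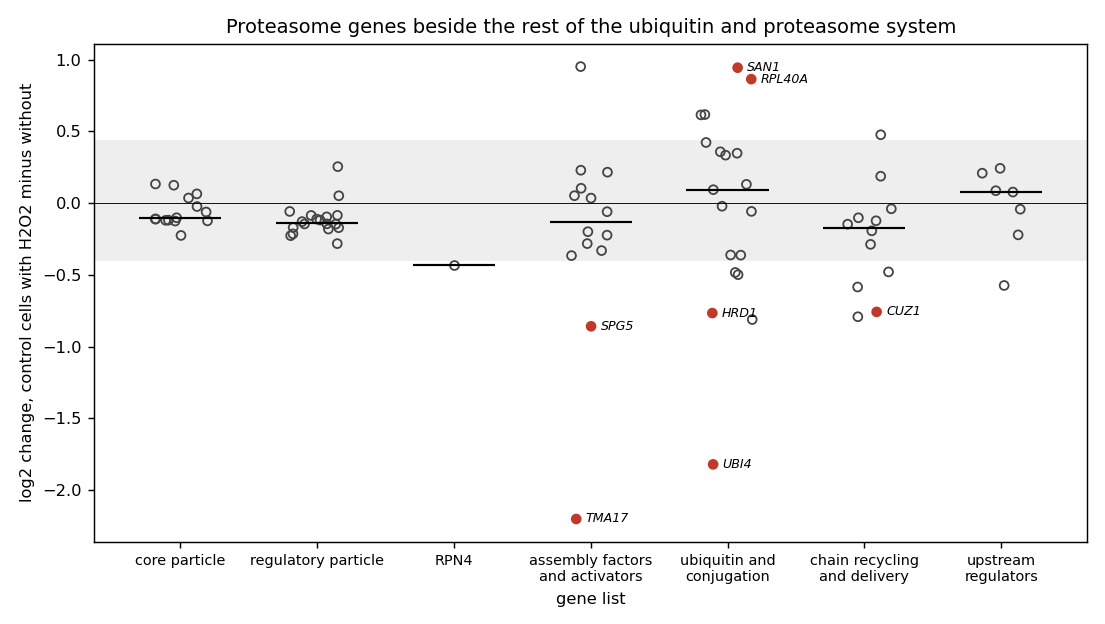
Log2 change with H2O2 in control cells (y axis) for genes of the core particle, the regulatory particle, RPN4 and 4 lists of related genes (x axis); each point is a gene, filled where it passed the test, short lines are medians and the grey band spans the middle quartiles of all tested genes. Proteasome subunits lie in a narrow strip between -0.28 and 0.25, while TMA17 (-2.20) and UBI4 (-1.82) lie far below.

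The second comparison set the arrays labelled mutant against control. All 33 members were well above background on all 4 control arrays, where the members' median signal was 29414 to 53726 units. On the 4 arrays labelled mutant that median was 6.88 to 11.3 units, and 17, 9, 7 and 16 members were well above background. Fewer cells, less labelled RNA and less transcript per cell cannot be told apart on these arrays. After scaling to the 75th percentile, 2 members were higher and 31 lower in the mutant without H2O2, against 50.5% of all genes higher and 28.8% lower. With H2O2, 2 were higher and 29 lower, against 51.7% and 28.3%. On the control arrays without H2O2 even the dimmest member read 15978 and 15779 units, above the 75th percentiles of 15424 and 15403. Those of the arrays labelled mutant were 9.87 to 14.5 units. A gene this bright in control cells comes out lower wherever its mutant reading lies under that percentile. The counts thus do not set the members apart from other bright genes, which were not counted separately. The members' fitted medians were -2.11 in both media (-1.43 and -1.41 with members below background set at their bounds), and those of all genes were 0.63 and 0.73. With spike-in scaling no member was higher (0 of 33) and all 33 were lower in both media, where 99.6% and 99.4% of all genes were lower. The sign of a change against control was thus a matter of scaling, and the loss of signal covered nearly the whole array. Both scalings subtract 1 value per array, so the place of a member relative to other genes was the same on both.

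PRE3, on chromosome X at 435163 to 435926 on the plus strand in 2 segments, stood apart from the other members on these arrays. Its probe read 558 and 855 units on the mutant arrays without H2O2 and 988 and 1192 units on those with H2O2, while the next member, RPN12, reached 102 units there. Against control it was 4.92 ± 0.26 higher in log2 without H2O2 and 5.47 ± 0.26 higher with it on the 75th percentile scale, and -5.91 and -4.67 on the spike-in scale. RPN12, for a lid subunit, read 87.6 and 84.0 units without H2O2 and 75.7 and 102 units with it. It was 1.24 ± 0.15 and 1.13 ± 0.15 higher on the 75th percentile scale, but -0.73 and -0.64 with normexp and -9.59 and -9.02 on the spike-in scale. The members above background on all 4 mutant arrays were PRE3, RPN12, RPN6, RPN10, RPN8 and RPT3. RPN6 read 19.7 to 55.4 units and was not called with H2O2 (-0.60 ± 0.39, adjusted p = 0.196).

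**Figure D5:**
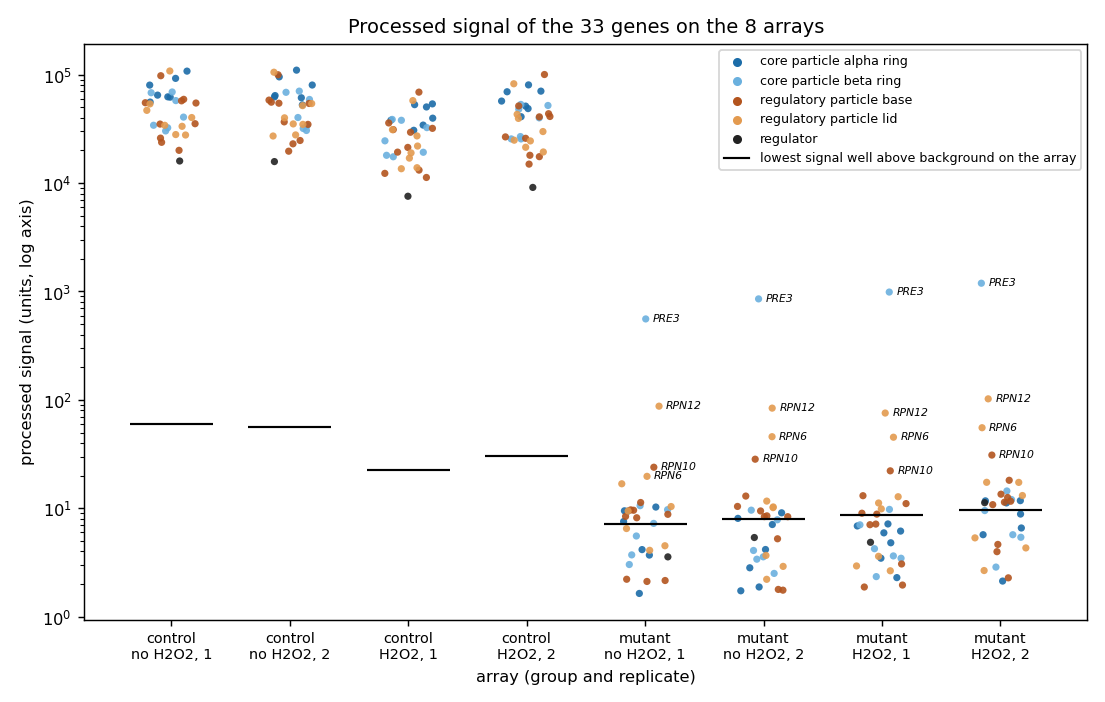
Processed signal in units on a log axis (y axis) for the 33 genes on each of the 8 arrays (x axis), coloured by role; the black lines mark the dimmest signal that each array marked as well above background. Every gene lies far above the line on the control arrays, and on the arrays labelled mutant most lie at or under it while PRE3 stays at 558 to 1192 units.

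The core particle had a lower median than the regulatory particle in the mutant, -2.78 against -1.39 without H2O2 and -2.74 against -1.56 with it. For 16 members without H2O2 and 17 with H2O2 the probe was well above background on neither mutant array, so the fold is a bound, taken against the dimmest signal that the array still marked as well above background. With these members set at their bounds, the medians were -2.34 for the core and -1.33 for the regulatory particle without H2O2, and -2.33 and -1.06 with it. A bound is set mainly by the gene's signal in control cells. On the 75th percentile scale without H2O2 it was 9.71-fold for PRE9 (mean control signal 108858 units) and 2.71-fold for PRE1 (30403 units). How far signal in control cells sets the order of the core and regulatory medians was not tested. Without H2O2 on the 75th percentile scale, PRE9 was at least 9.71-fold lower, PRE6 at least 8.37-fold, SCL1 at least 7.15-fold and RPT1 at least 5.24-fold. With spike-in scaling the same 4 bounds became at least 17632-fold, 15200-fold, 12980-fold and 9507-fold. RPN4 read 3.6 and 5.4 units on the mutant arrays without H2O2 and 4.9 and 11.3 units on those with H2O2, well above background on none. By the 75th percentile RPN4 was at least 1.42-fold lower without H2O2. The fitted log2 change was -1.29 ± 0.31 (limma adjusted p = 0.0059), a call lost with normexp (-0.074, adjusted p = 0.412). RPN4 passed the filter on dim probes only through the control groups. The p-value thus rests on mutant readings within background and is not taken as support for a fall. With H2O2 its change was -0.30 ± 0.31 (adjusted p = 0.385), and no bound above 1 could be given on that scale. With H2O2 its direction depended on the processing: it was called lower with the array median (-1.06, adjusted p = 0.011) and on the spike-in scale (at least 1052-fold), and called higher with normexp (0.43, adjusted p = 0.0023).

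With H2O2 the authors' deposited table listed 30 of 33 as down and 3 as up in the mutant, with 20 and 2 of them at a corrected p under 0.05. Without H2O2 the authors' deposited table listed 31 as down and 2 as up, 19 and 2 of them past that threshold. PRE3 was up 21.0-fold with H2O2 and 22.9-fold without it in the authors' deposited tables, and RPN12 up 3.32-fold and 3.76-fold. RPN4 was down 1.71-fold (corrected p = 0.229) and 3.75-fold (corrected p = 0.133) in the authors' deposited tables.

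The last comparison asked what H2O2 did on the arrays labelled mutant, and whether that differed from control cells. No member was called for H2O2 on the mutant arrays by limma, where 0.0331% of all genes were. At an unadjusted p under 0.05, which 12.6% of all tested genes met, there were 3, PRE6, RPT1 and SCL1, and none of these 3 was well above background on any mutant array. The term for a difference in the H2O2 response between strains called 1 member, PRE6, against 11.6% of all genes. PRE6 read 1.6 and 1.9 units on the mutant arrays without H2O2 and 3.5 and 5.7 units on those with it, below the dimmest signal marked as well above background on these arrays (7.15 to 9.73 units). Its term was 1.25 ± 0.25 (adjusted p = 0.029), which describes readings that lay within background. The term for RPN4 was 0.99 ± 0.43 (adjusted p = 0.175), likewise from mutant readings that were well above background on no array, and with normexp it was called higher (0.50, adjusted p = 0.012).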

How the data were processed

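Total RNA was labelled with Cy3 and hybridised to 8 one-colour arrays on 1 slide, read in 1 scan. The scanner files hold spot intensity made for the authors by Feature Extraction 10.7.1.1, per the file headers. The authors' deposited tables hold p-values and corrected p-values, an absolute fold change and normalized log2 values per array, per the file headers. Their 8 columns of raw values and 4 emptied lines per table were not used here. Gene positions are those of release 64-1-1 in the authors' deposited tables, and none are given for RPT6 and RPN11. No promoter or protein sequence was used here.

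Processed signals were taken as log2, averaged over the 2 spots of each probe, and scaled by subtracting the array's 75th percentile. Control spots (536) and outlier spots (7 to 39 per array) were left out, and no spot was saturated. Genes with several probes (29) used the one with the highest mean. A gene entered the test if both arrays of some group marked its probe as well above background. The test was limma 3.58.1 under R 4.3.3 (4 groups in 1 fit, 4 residual and 3.10 prior degrees of freedom), two-sided, with Benjamini-Hochberg adjustment in each of 5 comparisons. The fit was tested on simulated data. Replicate numbers correlated at r = 0.211 between the control groups and at -0.072 to 0.016 otherwise, so they were not taken as pairs. A bound sets the bright group on each dim array against the dimmest signal marked as well above background there, or against the probe's own reading where that was higher. Spike-in scaling used 7 of 10 E1A probes. Normexp (offset 50) used median signals, since the files hold no mean signal.

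All 33 members are named. Values on each array are given for RPN4, for the 3 members with the smallest p in each ring, the base and the lid, and for up to 4 members of opposite sign, and up to 4 genes by smallest p from each other list; RPN5 was added after its values were seen. Members, lists and tests were chosen with earlier results of these data known.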

Additional observations from a re-analysis of the deposited data

Results flagged for a closer look

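Of the genes named here, 4 were called by the interaction term of strain and H2O2 in the limma fit, as were 11.6% of all tested genes. The term is given as the H2O2 change on mutant arrays minus that in control cells, in log2. On the mutant arrays themselves H2O2 called 0.0331% of all genes. The term was 1.25 for PRE6 (adjusted p = 0.029) and 1.82 for TMA17 (adjusted p = 0.029). It was -1.07 for SAN1 (adjusted p = 0.030) and 2.00 for STE3, the a-factor receptor gene of alpha cells (adjusted p = 0.021). PRE6 and STE3 were well above background on no array labelled mutant, and TMA17 on 1 of the 4. SAN1 was above background on all 4, at 16.1 to 27.6 units against 7208 to 11904 units on the control arrays. How far the dim mutant arrays shaped these terms was not tested.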

How the results depend on the processing

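For H2O2 in control cells, the counts of members risen and fallen stayed at 0 and 0 except with normexp (1 and 11) and with only the groups compared (1 and 3). RPN4 was then called at -0.50 and -0.43. The core and regulatory medians were -0.071 and -0.10 with the array median, and -0.65 and -0.68 on the spike-in scale, where RPN10 turned to -0.29. TMA17 kept its call under all 20 alternatives run, while quantile normalization lost the calls of SPG5, UBI4, SAN1, HRD1 and CUZ1 and the spike-in scale those of RPL40A and SAN1. RPL40A was also lost with the replicate block (adjusted p = 0.054) and a variance trend (0.374). Leaving out 1 array in turn gave 0 to 0 members risen or fallen, -0.54 to -0.32 for RPN4, -0.107 to -0.078 for the core median and -0.156 to -0.116 for the regulatory median. With the replicate block the counts were 0 risen and 0 fallen, RPN4 stayed at -0.43, and the block changed no member's call in any comparison.

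For mutant against control without H2O2, the count higher was 0 on the spike-in scale and 1 with normexp. The count lower was 7 of 9 tested with only genes above background on every array compared, and 4 of 7 with H2O2. With H2O2 the count higher was 1 with the array median and 0 on the spike-in scale, and with normexp the 2 higher were PRE3 and RPN4, not RPN12. RPN4 in that comparison turned to 0.43 with normexp and to 0.033 without mutant replicate 1 grown with H2O2. PRE3 turned to -5.91 without H2O2 and -4.67 with it on the spike-in scale. RPN12 turned to -9.59 and -9.02 on the spike-in scale, and to -0.73 and -0.64 with normexp. Leaving out 1 array gave 2 to 2 higher, and 29 to 31 lower without H2O2 and 27 to 30 with it.

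The count called for H2O2 on mutant arrays was 1 with quantile normalization, and 0 to 4 without 1 array. The interaction count was 4 with normexp (RPN3, RPN11 and RPN4 higher, RPN10 lower, PRE6 not called) and 0 with quantile normalization, the spike-in scale, the stricter filter, adjusted p under 0.01 and the averaged controls, and 0 to 4 without 1 array, highest without mutant replicate 2 grown without H2O2. PRE6's own term kept its sign. The number of calls over all genes also varied, with 36 higher and 74 lower after quantile normalization and 38 higher and 86 lower with the control arrays without H2O2 averaged. The cause of these differences was not tested. Readings on the arrays labelled mutant lay mostly near background, which limits each comparison that uses them.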
